A study of Mus musculus with 16 samples.

Results

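The genes described here are 7 cytokines that T cells make or respond to in inflamed tissue, Ifng, Tnf, Lta, Ltb, Csf1, Il2 and Il10. They were taken by name from the 32285 genes listed in each matrix. Their messenger RNA was followed in 9 single-cell matrices of CD8+ T cells and, by cell class, in a matrix of all CD45+ cells from a rejecting kidney. Each value counts unique molecular identifiers (UMIs, 1 per captured transcript), either as counts on a per-million scale of the library's total (CPM) or as the share of cells with at least 1 UMI after every cell was thinned to 1000 UMIs.

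The labels give genotype WT and strain C57BL/6J for every sample and name no drug. By the study's methods, accepted grafts were DBA/2J kidneys in C57BL/6 recipients, a pairing that keeps its graft without immunosuppression, and rejecting grafts were C57BL/6 kidneys in DBA/2J recipients. Acceptance and rejection therefore differed in donor and recipient strain, and strain and outcome cannot be told apart. Viable CD45+ cells were sorted from grafts or spleens and the authors then selected CD8+ T cells computationally. The libraries numbered 3, 5 and 3 for accepted kidney at 1, 3 and 24 weeks, the same for the recipients' spleens, 2 for rejecting kidney and 3 for the rejecting recipients' spleen at 1 week, and 5 for naive spleen. Each library was identified by a tag on its cell barcodes and was taken as 1 mouse.

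Interferon-gamma (IFN-γ, from Ifng) is the main macrophage-activating product of effector CD8+ T cells and natural killer (NK) cells, and it induces antigen presentation in the tissue it reaches. Tumor necrosis factor (Tnf), lymphotoxin-alpha (Lta) and lymphotoxin-beta (Ltb) are related ligands: the first 2 bind the TNF receptors, while Ltb holds lymphotoxin heterotrimers on the cell surface for the lymphotoxin-beta receptor, which shapes lymphoid tissue. Csf1 encodes macrophage colony-stimulating factor, Il2 the T cell growth factor that signals through Il2ra, Il2rb and Il2rg, and Il10 an inhibitory cytokine that restrains antigen-presenting cells.

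The transcripts of Ifng, Tnf and Csf1 had their 3 highest group means in the same 3 matrices, so the 250 bases upstream of their starts are shown side by side (RefSeq, build GRCm38.p6, 5′ to 3′ on the gene's strand). For Ifng this ranking was narrow. Rejecting kidney (mean 181 CPM) overlapped with the next group, accepted kidney at 1 week (167 CPM). Without 31 cells that clustered as NK-like, described below, the rejecting libraries had 156 and 136 CPM. Capitals mark the NFAT core GGAAA, the kappaB letters (GGGA, any 4 bases, CC) and the TATA box TATAAA, each on either strand, so that TTTCC is an NFAT core read from the other strand. Ifng lies on the plus strand of chromosome 10 and its window is chr10:118440796-118441045. Tnf is on the minus strand of chromosome 17 with the window chr17:35202008-35202257. Csf1 is on the minus strand of chromosome 3 with the window chr3:107760470-107760719.
Ifng: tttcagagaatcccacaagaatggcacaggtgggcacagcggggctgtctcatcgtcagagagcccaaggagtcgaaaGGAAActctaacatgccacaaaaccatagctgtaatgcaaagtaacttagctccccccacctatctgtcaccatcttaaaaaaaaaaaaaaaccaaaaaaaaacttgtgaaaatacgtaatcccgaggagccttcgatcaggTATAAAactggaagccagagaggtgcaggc
Tnf: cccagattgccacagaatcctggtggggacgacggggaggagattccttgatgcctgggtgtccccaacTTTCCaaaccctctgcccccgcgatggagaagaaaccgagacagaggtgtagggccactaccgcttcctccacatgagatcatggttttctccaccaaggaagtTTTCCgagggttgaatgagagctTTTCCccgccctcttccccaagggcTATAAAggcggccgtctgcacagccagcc
Csf1: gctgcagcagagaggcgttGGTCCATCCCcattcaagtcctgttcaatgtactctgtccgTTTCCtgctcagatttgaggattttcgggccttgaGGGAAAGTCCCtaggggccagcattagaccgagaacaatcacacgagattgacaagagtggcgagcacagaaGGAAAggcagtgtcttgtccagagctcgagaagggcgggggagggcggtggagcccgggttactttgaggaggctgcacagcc

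The Ifng window held 1 NFAT core, whose first base lay at -172 from the start, and a TATA box at -30. In Tnf there were 3 NFAT cores, at -181, -77 and -54, with a TATA box at -29. The Csf1 window held 3 NFAT cores and 3 kappaB matches and no TATA box. The kappaB matches that began at -155 and -154 overlapped each other and the NFAT core at -154. Such letters were common: 55.6% of 27025 promoter windows of the same length held an NFAT core, 17.3% a kappaB match and 13% a TATA box. The letters TGANTCA (AP-1, in 6.87% of windows) and TGACGTCA (CRE, in 1.62%) were in none of the 3 windows. These matches describe letters and carry no evidence of binding. Ltb, Tnf and Lta are neighbors on chromosome 17, with 3060 bases between Ltb and Tnf and 1157 between Tnf and Lta.

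The 32 CD8+ libraries held 56 to 8407 cells and 153266 to 25960721 UMIs each, with a median of 1631 to 5420 UMIs per cell. Of 72639 cells, 464 had under 1000 UMIs and were left out of the shares. No pair of libraries shared more than 21 cell barcodes. The matrices were not equally pure. Cells with a Cd8a or Cd8b1 UMI made up 83.5% to 90.1% of accepted kidney libraries at 1 week and 96.3% to 97.0% at 3 weeks, and 76.6% to 78.1% of rejecting kidney libraries. Cd4 without CD8 was in 1.95% to 3.31% of cells in accepted kidney at 1 week, whereas in the rejecting kidney libraries no cell held a UMI of Cd4, or of the NK genes Klrb1c and Klra8. Of 6 NK genes, 1 also had no UMI in the NK-like cells of that kidney, described below. The lack of Klrb1c and Klra8 is therefore not read as a lack of NK cells. CD8 UMIs were in 41.9% to 51.8% of cells of the accepting recipients' spleens at 1 and 3 weeks, where 10.0% to 23.0% had Cd4 without CD8. At 24 weeks the order was the opposite: 46.2% to 49.2% in the libraries labelled kidney and 93.4% to 95.3% in those labelled spleen. A list of 15 kidney parenchyma genes likewise summed to 4.42 to 14.8 CPM in the libraries labelled kidney and 33.0 to 46.9 CPM in those labelled spleen at 24 weeks. Neither measure is a sure mark of the organ. Spleens at 1 week had 40.0 to 60.4 CPM of that list, and CD8 UMIs were in 95% to 97.6% of cells in naive spleens. In rejecting recipients' spleens the share was 100% and no cell held Cd4 without CD8. That share may follow from the selection of cells and is not used here. The barcode tags hold a K where the label is kidney and an S where it is spleen, at 24 weeks as at 1 and 3 weeks. Whether the 24-week matrices match their labels could not be settled here, so their values below are given as labelled. CPM values were also recomputed in cells with a CD8 UMI and none of Cd4, Cd79a, Lyz2 or Csf1r, which mark CD4+ T, B and myeloid cells, and these are called CD8-gated cells.

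Ifng was high in grafts and low in spleens up to 3 weeks. Accepted kidneys at 1 week had 174, 182 and 143 CPM (mean 167 ± 20.6 SD, n = 3) and at 3 weeks 221, 175, 182, 212 and 189 CPM (196 ± 19.5, n = 5), so that the 2 groups overlapped. The 2 rejecting kidneys had 170 and 192 CPM. Recipients' spleens had 29.8, 32.8 and 25.9 CPM at 1 week and 10.6 to 14.9 CPM at 3 weeks, every spleen library lying below every kidney library of those times. Naive spleens were lowest at 1.27 to 5.29 CPM. The libraries labelled spleen at 24 weeks were highest of all at 296, 268 and 299 CPM, and those labelled kidney had 11.4, 22.0 and 9.50 CPM.

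At matched depth 10.8% ± 0.894 (SD, n = 3) of cells had Ifng in accepted kidney at 1 week and 14.5% ± 1.31 (n = 5) at 3 weeks, and these shares did not overlap (exact permutation test, two-sided, p = 0.0357, the smallest that 3 against 5 libraries allow). The unthinned shares averaged 24.4% and 26.5% and overlapped, at 20.6% to 31.3% and 22.7% to 34.1%. The share in naive spleen was 0.248%, beside 0.314% in B-like cells of the naive spleen CD45+ matrix, a cell type that should lack the transcript (median 2660 UMIs per cell), and 0.0519% in its CD8 T-like cells. The naive CD8+ libraries were deeper than those B-like cells (median 3710 to 4980 UMIs per cell). The B-like class holds only clusters that met the naming rule. Unnamed clusters of 10704, 6733, 4045 and 3107 cells also scored highest for the B genes and are not in its share. That share need not stand for B cells as a whole, and whether the naive share was expression or background could not be settled. The top 1% of cells held 28.1% of Ifng UMIs at 1 week and 17.2% at 3 weeks, and the most in a single cell was 106 and 24 UMIs. Thus the share of Ifng cells at matched depth differed between 1 and 3 weeks, while the per-library levels and unthinned shares overlapped. That p-value is 1 of 70 that were not adjusted. A share at a fixed depth, like CPM, is relative to all UMIs. On that scale the log2 change of Ifng was -0.17 relative to the median of all genes tested. The share is therefore not read as more cells making Ifng.

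**Figure D1:**
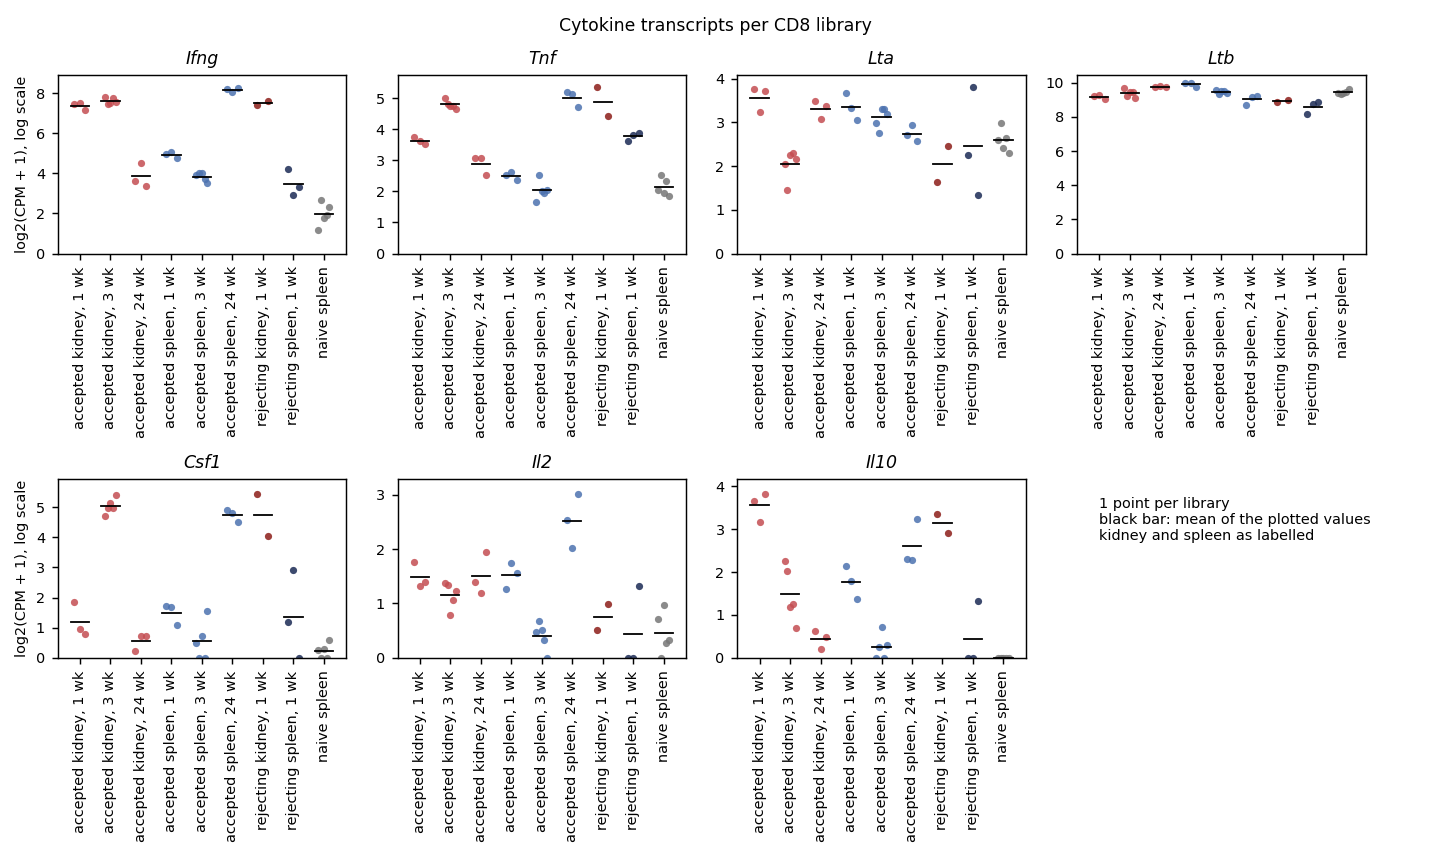
Level of each cytokine in every CD8+ library of the 9 groups as log2(CPM + 1), with 1 point per library and a bar at the mean of the plotted values. Ifng sits between 143 and 221 CPM in kidneys at 1 and 3 weeks and at or below 32.8 CPM in spleens of those times, and Csf1 averages 1.42 CPM in accepted kidney at 1 week and 32.4 CPM at 3 weeks.

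Tnf was higher at 3 than at 1 week in the accepted kidney. Accepted kidneys had 12.4, 11.3 and 10.6 CPM at 1 week and 24.1 to 31.2 CPM (median 26.1) at 3 weeks, with no overlap. The 2 rejecting kidneys had 40.0 and 20.4 CPM, both above every accepted kidney of the same week. Spleens of accepting recipients had 4.14 to 5.20 CPM at 1 week and 2.19 to 4.78 CPM at 3 weeks, which overlapped with the 2.62 to 4.73 CPM of naive spleen. Rejecting recipients' spleens had 11.3, 13.05 and 13.6 CPM, from only 9, 2 and 9 UMIs, and the second of these lies below the 19.6 CPM that 3 counts make in that library. At 24 weeks the libraries labelled kidney had 7.40, 7.39 and 4.81 CPM and those labelled spleen 35.8, 34.2 and 25.2 CPM. The matched-depth shares were 1.12% and 2.57% in accepted kidney at 1 and 3 weeks, 2.78% in rejecting kidney and 0.222% in naive spleen.

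In the CD8 matrices of accepted kidney, Csf1 was close to absent at 1 week and present at 3 weeks. Accepted kidneys had 2.61, 0.921 and 0.732 CPM at 1 week and 25.4, 30.5, 34.5, 30.2 and 41.1 CPM at 3 weeks. The rejecting kidneys already had 42.5 and 15.6 CPM at 1 week. Spleens of accepting recipients had 1.13 to 2.27 CPM at 1 week and 0 to 1.92 CPM at 3 weeks, and naive spleens 0 to 0.523 CPM, where the largest count in a library was 2 UMIs. The matched-depth share was 0.0904% in accepted kidney at 1 week and 3.09% at 3 weeks. It was 2.83% in rejecting kidney, 2.88% in the libraries labelled spleen at 24 weeks and 0.119% in those labelled kidney. In cells without an Mki67 UMI, a marker of dividing cells, the Csf1 share was 0.0844% at 1 week and 3.05% at 3 weeks.

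Lta was lower at 3 weeks than at 1 week in the accepted kidney. It was 12.5, 8.36 and 12.1 CPM at 1 week and 1.74 to 3.96 CPM at 3 weeks, with no overlap, and the libraries labelled kidney at 24 weeks had 10.3, 7.39 and 9.37 CPM. The 2 rejecting kidneys had 2.10 and 4.54 CPM, both below the accepted kidneys of the same week. Ltb was detected in a large share of cells in every group, from 26.1% in spleens of rejecting recipients to 58.5% in spleens of accepting recipients at 1 week at matched depth. Its levels were 589, 611 and 540 CPM in accepted kidney at 1 week and 558 to 816 CPM at 3 weeks, which overlapped. Spleens at 1 week had 1014, 1016 and 876 CPM, and naive spleens 642 to 806 CPM. In naive spleen 49.0% of cells had Ltb at matched depth.

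Il2 was rare in all groups. No library exceeded 7.07 CPM, and the highest were those labelled spleen at 24 weeks, with 4.77, 3.06 and 7.07 CPM. Il10 was 11.7, 8.0 and 13.1 CPM in accepted kidney at 1 week and 0.626 to 3.75 CPM at 3 weeks. The 2 rejecting kidneys had 9.26 and 6.49 CPM. In naive spleen no Il10 UMI was seen in any of the 5 libraries, which allows up to 0.606 to 0.835 CPM in a library from 3 counts, and 0 of 4680 cells allows a share of up to 0.0641%. These limits cover counting error only.

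Some of the Il10 transcripts in the CD8 matrices lay in cells with Cd4. In accepted kidney at 1 week 4.11% of cells with Cd4 and no CD8 UMI had Il10, compared with 0.648% of cells with CD8 and no Cd4, and all 3 libraries had this order. The former were few, 265 cells against 10700. In CD8-gated cells Il10 was still 7.43 ± 1.10 CPM (SD, n = 3) at 1 week and 1.68 ± 1.41 CPM (n = 5) at 3 weeks. In spleen at 1 week the level fell from a mean of 2.47 CPM in all cells to 0.271 CPM in gated cells, so most of this Il10 lay outside the gated cells.

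**Figure D2:**
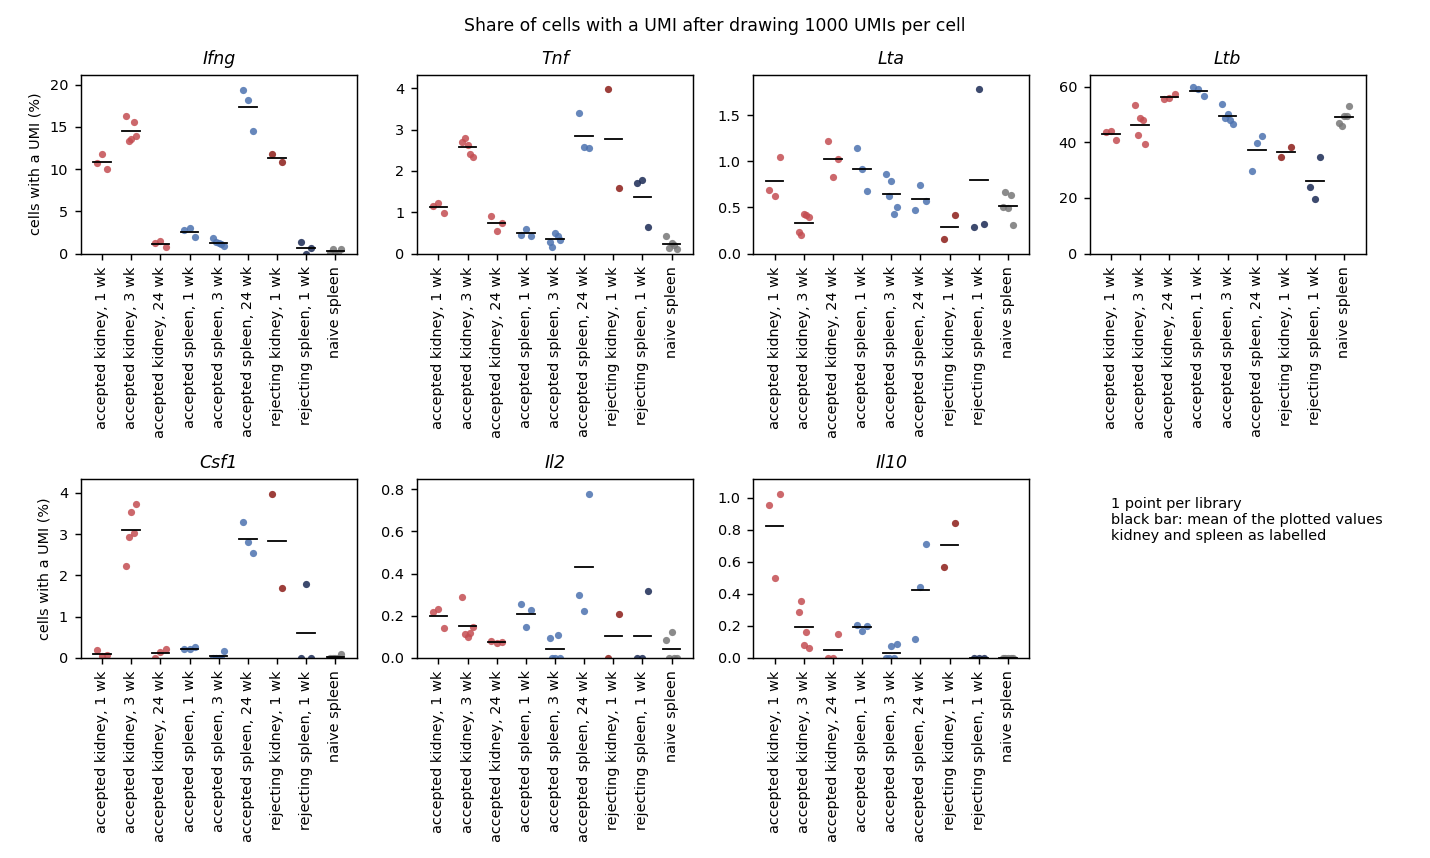
Share of cells with at least 1 UMI of each cytokine after thinning every cell to 1000 UMIs (percent), with 1 point per CD8+ library and a bar at the mean of the plotted values. Ifng averages 10.8% and 14.5% in accepted kidney at 1 and 3 weeks, while Csf1 averages 0.0904% and 3.09%.

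Each comparison below summed UMIs per library and tested all genes with edgeR's quasi-likelihood test and Benjamini-Hochberg adjustment over every gene tested. A gene was called at an adjusted p under 0.05. A gene was tested when it had enough counts in as many libraries as the smallest compared group holds, so a member that is near 0 in some of the groups entered through the groups where it is high, and its call is partly fixed by that filter. This holds for Csf1 between kidney and spleen at 3 weeks and within rejecting mice, for Csf1, Il2 and Il10 in the comparisons with the 24-week libraries labelled spleen, and for Csf1 and Il10 between 3 and 24 weeks in the libraries labelled kidney, while Ifng, Tnf, Lta and Ltb were testable within both organs of accepting mice. Levels are relative to plain library totals, and since the median gene often moved on that scale, its shift is given with each comparison. Several comparisons share libraries, most of all the accepted kidneys of 3 weeks, so their values are not independent of one another.

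Between 1 and 3 weeks in the accepted kidney, the members did not move together. Csf1 rose 24.9-fold (log2 fold change 4.64 ± 0.28 SE, adjusted p = 5.0e-09), or by 5.32 without replicate 1 of 1 week, and Tnf rose 2.37-fold (1.25 ± 0.11, adjusted p = 1.5e-07). Lta was 3.41-fold lower (log2 -1.77 ± 0.20, adjusted p = 1.8e-06) and Il10 5.45-fold lower (-2.45 ± 0.33, adjusted p = 8.9e-06). Ifng passed the threshold with a log2 fold change of 0.23 ± 0.10 (adjusted p = 0.044), which turned to -0.15 with TMM scaling and -0.16 with DESeq2. The Ifng call was also lost when replicate 1 or 3 of 1 week, or replicate 1, 4 or 5 of 3 weeks, was left out (0.14 to 0.27, adjusted p = 0.054 to 0.22). Ltb at 0.22 and Il2 at -0.52 did not pass. Csf1 was low in the 1-week kidneys, at 13 to 35 UMIs each, and entered the test through the 3-week counts. On plain totals 3 of 7 members rose, Ifng and Csf1 included, in a comparison where 53.5% of 11693 genes did. Another 2 fell, where 21.5% did. The median gene moved by 0.41 on the log2 scale. Of all calls 71.3% were upward on plain totals and 49.7% with TMM scaling.

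A cell cycle list of 5 genes summed to 1260 to 2408 CPM in these kidneys at 1 week and 73.4 to 88.2 CPM at 3 weeks. A list of 6 myeloid genes, all 6 detected, summed to 204 to 277 CPM at 1 week and 367 to 766 CPM at 3 weeks. In CD8-gated cells, which leave out cells with Lyz2 or Csf1r, Csf1 was 1.20 ± 0.76 CPM at 1 week and 32.2 ± 6.02 CPM at 3 weeks (SD, n = 3 and 5). Tnf in the gated cells was 11.3 ± 1.39 and 26.3 ± 2.08 CPM. Both differences were as large in the gated cells. The part of the dividing cells in the changes of the other members was not tested.

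The recipients' spleens did not share this pattern in the members that were testable there. Of 4 members with enough counts, Ifng fell by 1.14 on the log2 scale from 1 to 3 weeks (SE 0.13, adjusted p = 1.8e-06) and Ltb fell by 0.45 (SE 0.08, adjusted p = 1.0e-04). Tnf at -0.53 and Lta at -0.28 did not pass. None of the 4 rose, where 35.1% of all genes did, and 2 fell, where 21.1% did. The median gene moved by 0.15, and 62.5% of calls were upward on plain totals and 48.5% with TMM. Il10 was too low to be tested, with 83 UMIs in the 3 spleens of 1 week and 5 in the 5 of 3 weeks. Its fall in kidney is therefore not shown to be particular to the graft.

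Whether the change over these weeks differed between the organs was tested by an interaction term. Csf1 changed by 6.28 ± 0.69 (SE) log2 units more in kidney than in spleen (adjusted p = 5.7e-07), or by 6.96 without kidney replicate 1 of 1 week and 7.33 without spleen replicate 5 of 3 weeks. The other differences of the same sign were Tnf at 1.77 ± 0.23 (adjusted p = 4.7e-06), Ifng at 1.37 ± 0.16 (adjusted p = 1.4e-06), Il2 at 1.86 ± 0.57 (adjusted p = 0.013) and Ltb at 0.67 ± 0.14 (adjusted p = 6.9e-04). Lta differed in the other direction, by -1.49 ± 0.30 (adjusted p = 4.9e-04), while Il10 at 0.96 ± 0.93 did not pass. The 3 spleens of 1 week held 62 Csf1 and 64 Il2 UMIs in all and the 5 of 3 weeks 13 and 8, so these 2 differences include lower spleen levels at 3 weeks, on few counts. In the 1-week spleens Csf1 averaged 1.87 CPM in all cells and 0.527 CPM in CD8-gated cells, and Il2 1.89 and 0.567 CPM. Most of these 2 transcripts in the 1-week spleens thus lay outside the gated cells. The calls were 5 upward, where 29.2% of 12319 genes had one, and 1 downward, where 10.9% had one, and since Csf1 and Il2 were too low to be tested within spleen nothing is read from these counts. The median gene had 0.24, and 72.8% of calls were upward on plain totals and 50.6% with TMM. Kidney-spleen differences of Ifng and Tnf, and on these low spleen counts of Csf1, widened between 1 and 3 weeks.

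Comparing the organs directly at 1 week, Ifng was 5.65-fold higher in kidney (log2 2.50 ± 0.13, adjusted p = 1.3e-07), Il10 4.49-fold (2.17 ± 0.28, adjusted p = 8.3e-05) and Tnf 2.44-fold (1.29 ± 0.16, adjusted p = 7.4e-05). Ltb was 1.67-fold lower (-0.74 ± 0.10, adjusted p = 1.2e-04). Its mean was 580 CPM in kidney and 969 CPM in spleen in all cells, and 582 and 828 CPM in CD8-gated cells, a smaller difference. Csf1, Il2 and Lta did not pass, with log2 values of -0.46, -0.06 and 0.24. Hence 3 of 7 were higher, where 27.3% of all genes were, and 1 lower, where 24.1% were, and the median gene had 0.0033. At 3 weeks Csf1 was 54.8-fold higher in kidney (log2 5.78 ± 0.32, adjusted p = 1.3e-11, and 6.82 without spleen replicate 5), Ifng 14.6-fold (3.87 ± 0.10, adjusted p = 1.6e-16) and Tnf 8.32-fold (3.06 ± 0.15, adjusted p = 2.8e-12). Lta was 2.37-fold lower and Ltb did not pass, at -0.07. Of 5 members tested 3 were higher, Csf1 among them on kidney counts only, where 47.3% of genes were, and 1 lower, where 20.2% were. The median gene had 0.22, with 70.0% of calls upward on plain totals and 51.4% with TMM.

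Spleen matrices held many cells without a CD8 UMI, so the gated values are given for 3 weeks. Ifng was 194 ± 16.4 CPM in gated kidney cells and 7.42 ± 2.29 CPM in gated spleen cells (SD, n = 5 each). Tnf was 26.3 ± 2.08 and 2.35 ± 1.06 CPM, and Csf1 32.2 ± 6.02 and 0.192 ± 0.271 CPM. The organ differences of these 3 genes were as large in gated cells. A list of 6 NK genes summed to 376 to 532 CPM in kidney and 154 to 259 CPM in spleen at 1 week. At 3 weeks it summed to 229 to 602 CPM and 73.1 to 112 CPM. The gate leaves out no NK marker, and the part of NK cells in the Ifng differences was not tested.

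**Figure D3:**
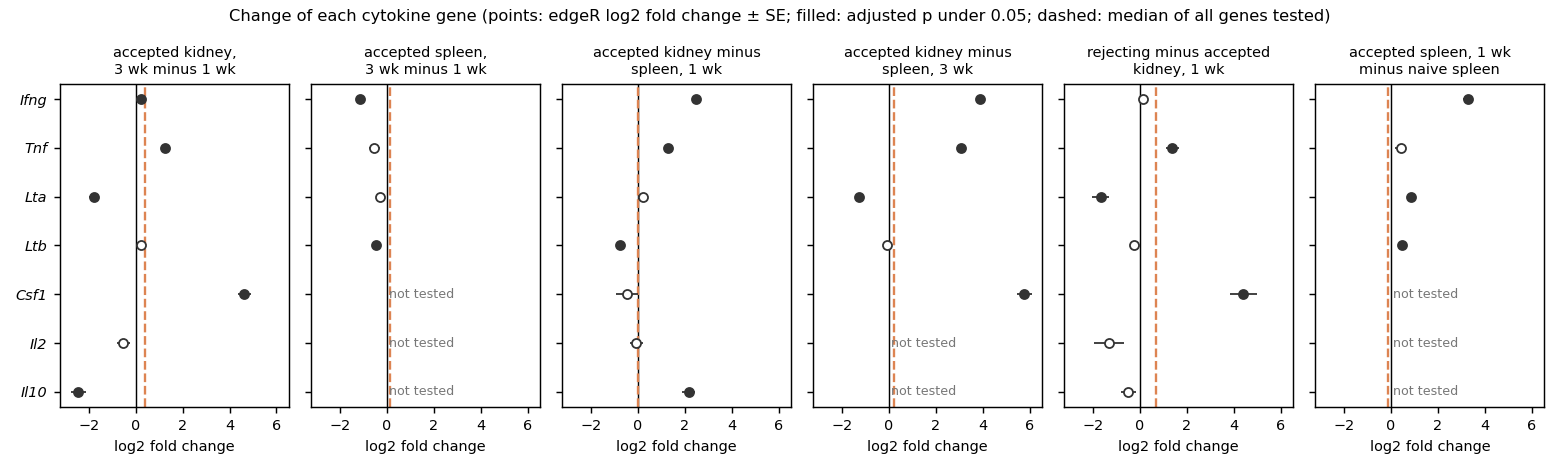
Log2 fold change of each member in the comparisons between CD8+ groups, fitted on library sums, with standard errors. Filled points passed the test, and the dashed line is the median of all genes tested. Csf1 is at 4.64 for 3 against 1 week in accepted kidney and at 4.41 for rejecting against accepted kidney, and Lta is at -1.77 and -1.67 in the same comparisons.

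By label, 24 weeks against 3 weeks in kidney brought Ifng down 13.8-fold (log2 -3.79 ± 0.19, adjusted p = 1.6e-10), Tnf 4.19-fold (adjusted p = 1.1e-08), Csf1 61.4-fold (adjusted p = 1.3e-10) and Il10 5.43-fold (adjusted p = 0.0066). Lta rose 2.79-fold and Ltb 1.29-fold. The 3 libraries of 24 weeks held 10 Csf1 and 7 Il10 UMIs in all, so that these 2 were testable only on the 3-week counts. The calls were 2 upward, where 16.6% of all genes had one, and 4 downward, where 56.9% had one, and since the filter partly fixed 2 of them nothing is read from these counts. The median gene moved by -0.44, and upward calls were 22.6% on plain totals and 48.4% with TMM. In the libraries labelled spleen the same interval brought Ifng up 21.5-fold, Csf1 43.2-fold, Il10 22.0-fold, Il2 13.3-fold and Tnf 9.80-fold, and Ltb was 1.33-fold lower. The log2 change of Csf1 was 5.43, or 6.45 without spleen replicate 5 of 3 weeks, and that of Il10 4.46, or 5.30 without replicate 3. The 5 spleens of 3 weeks held 13 Csf1, 8 Il2 and 5 Il10 UMIs in all, so that these 3 were testable only on the 24-week counts. The calls were 5 upward, where 29.8% of all genes had one, and 1 downward, where 30.8% had one, and since the filter partly fixed 3 of them nothing is read from these counts. The median gene moved by -0.0306. Between the 2 labels at 24 weeks, 2 of 7 were higher in kidney (16.4% of all genes) and 5 lower (36.7% of all genes). Csf1, Il2 and Il10 were testable only on the counts labelled spleen, so nothing is read from these counts of calls. The largest difference was that of Csf1 at 48.6-fold lower and the next Ifng at 20.3-fold lower, while Lta and Ltb were 1.58-fold and 1.64-fold higher. The Lta call was lost without replicate 1 labelled kidney (0.57, adjusted p = 0.061) or replicate 3 labelled spleen (0.57, adjusted p = 0.068), and without the latter Il2 missed it too (-1.01, adjusted p = 0.0503). The median gene had -0.17, and upward calls were 31.0% and 48.4% with TMM. In CD8-gated cells at 24 weeks Ifng was 4.45 ± 2.09 CPM labelled kidney and 284 ± 14.0 CPM labelled spleen (SD, n = 3 each). It was 194 CPM in gated kidney cells at 3 weeks, so both differences of Ifng were larger in gated cells. Because it could not be settled whether these libraries match their labels, no direction over time or between organs at 24 weeks is drawn from them.

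At 1 week, rejecting and accepted kidneys differed in Csf1, Tnf and Lta. Csf1 was 21.3-fold higher in rejection (log2 4.41 ± 0.56, adjusted p = 2.3e-04). Its log2 value was 5.13 without accepted replicate 1, and 3.53 and 4.997 without rejecting replicate 1 and 2. Tnf was 2.63-fold higher (1.39 ± 0.27, adjusted p = 0.0024). Lta was 3.18-fold lower (-1.67 ± 0.38, adjusted p = 0.0050), or at -2.38 without rejecting replicate 2. Ifng did not pass at 0.12 ± 0.17 (adjusted p = 0.56), but was called lower, at -0.57, with TMM scaling and at -0.563 with DESeq2. The rejecting matrix also held 31 cells that clustered as NK-like, described with the cell classes, and without them Ifng was 156 and 136 CPM in the 2 rejecting kidneys and its log2 difference -0.19 (adjusted p = 0.38), or -0.88 with TMM scaling. Of these cells, 1 held 136 of the 591 Ifng UMIs of rejecting replicate 2, which had 415 without the NK-like cells. These cells were taken out on the rejecting side only. The accepted kidneys kept any such cells, so this removal by itself lowers Ifng in rejection and gives no like comparison. The 6 NK marker genes summed to 376 to 532 CPM in accepted kidneys and 320 to 407 CPM in all cells of the rejecting CD8 libraries. This sum does not count NK cells, since CD8 T-like cells of the rejecting kidney had 385 CPM of it. In the rejecting CD8 libraries 2 of the 6 genes also had no UMI, and 1 of the 6 had none in the NK-like cells of that kidney. The sums are therefore no like measure across the 2 models. The calls of Csf1, Tnf and Lta held on plain totals without these cells, and with TMM scaling Tnf again missed the threshold (0.69, adjusted p = 0.081). Ltb at -0.23, Il10 at -0.50 and Il2 at -1.30 did not pass. With TMM scaling 1 member was called higher and 5 lower, where 3443 of 12533 genes were higher and 3222 lower. Csf1 stayed higher at 3.74 and Tnf missed the threshold at 0.71 (adjusted p = 0.063). Ltb at -0.93, Il10 at -1.18 and Il2 at -1.97 joined Lta and Ifng as lower. DESeq2 called the same members but Il2 (-2.004, adjusted p = 0.052). On plain totals 2 of 7 were higher, where 48.9% of 12533 genes were, and 1 lower, where 10.5% were. The median gene had 0.70, with 82.4% of calls upward on plain totals and 51.7% with TMM. The 2 rejecting kidneys lay far apart in Csf1 and in Tnf, but both lay above all 3 accepted kidneys in each. An exact permutation test of 2 against 3 libraries cannot go below p = 0.2. The myeloid list summed to 274 to 317 CPM in rejecting kidneys, and Csf1 in gated cells was 30.5 ± 24.2 CPM (SD, n = 2) against 1.20 CPM in accepted kidney.

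Within rejecting mice, 2 of the 4 testable members were higher in kidney than in spleen, Csf1 on kidney counts only, where 10.8% of 8205 genes were, and none was lower, where 5.34% were. Ifng was 14.1-fold higher (log2 3.82 ± 0.36, adjusted p = 1.4e-05), or at 3.51 without the NK-like cells, and Csf1 also passed (4.41 ± 0.87, adjusted p = 0.0033). With 149 Csf1 UMIs in kidney and 2 in spleen, Csf1 was testable only on the kidney counts, and the ratio of pooled levels was 22.0, with a 95% interval for counting error of 5.97 to 183. Tnf at 1.26 ± 0.44 (adjusted p = 0.069) and Ltb at 0.32 did not pass. The Csf1 value was 3.50 without kidney replicate 1, and 5.25 and 3.67 without spleen replicate 2 and 3. Without the spleen library of replicate 1, which held the most cells, 1 member was called, Ifng, and Csf1 was at 4.41 (adjusted p = 0.062). The median gene had 0.25, and upward calls were 66.9% and 49.2% with TMM. Spleens of accepting recipients at 1 week were compared with naive spleens to ask what differed outside the graft. There 3 of 4 testable members were higher (25.0% of all genes) and none lower (35.2% of all genes). Ifng was 9.68-fold higher (log2 3.28 ± 0.21, adjusted p = 2.3e-09), Lta 1.83-fold (0.87 ± 0.20, adjusted p = 0.0013) and Ltb 1.38-fold (0.47 ± 0.08, adjusted p = 8.2e-05). The median gene had -0.12. A list of 6 B cell genes summed to 570 to 1114 CPM in these recipient spleens and 30.9 to 62.4 CPM in naive spleens, and B-like cells of the naive spleen CD45+ matrix had 981 CPM of Ltb. In CD8-gated cells Lta was at -0.0367, with 4.73 CPM in recipients and 4.92 CPM in naive mice, so its difference was not seen there. Ltb in gated cells was 828 ± 24.3 CPM (SD, n = 3) and 701 ± 63.2 CPM (n = 5), a smaller log2 difference of 0.24 (adjusted p = 0.010), and Ifng was 29.9 and 2.69 CPM. The 6 NK marker genes summed to 154 to 259 CPM in these recipient spleens and 24.7 to 54.7 CPM in naive spleens. The gate leaves out no NK marker, and the part of NK cells in the Ifng difference was not tested.

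Cells were also split by whether they held a UMI of another gene. In accepted kidney at 1 week 19.1% of cells with a Ccl4 UMI, a chemokine of activated effectors, had Ifng, compared with 8.72% of cells without. The order was the same in all 3 libraries. At 3 weeks the shares were 16.5% and 13.4%, in the same order in all 5 libraries, and in rejecting kidney 21.9% and 9.71%. Cells with Tcf7, a factor of naive and memory T cells, had Ifng in 5.32% against 11.4% of cells without it at 1 week, lower in 3 of 3 libraries, and at 3 weeks the shares were 14.2% and 14.5%. With Gzmb, the granule protease, the shares were 13.3% and 9.77% at 1 week, higher with Gzmb in 3 of 3 libraries, and 13.2% and 15.2% at 3 weeks, higher in 1 of 5. The splits at 1 and 3 weeks were not tested against each other. Of cells with Mki67, 36.5% had Ltb against 43.8% of those without at 1 week, 41.1% against 46.5% at 3 weeks, and 27.5% against 40.0% in rejecting kidney, lower in every library of these 3 groups. Few cells held 3 or more members, 0.304% at 1 week and 0.554% at 3 weeks in accepted kidney.

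**Figure D4:**
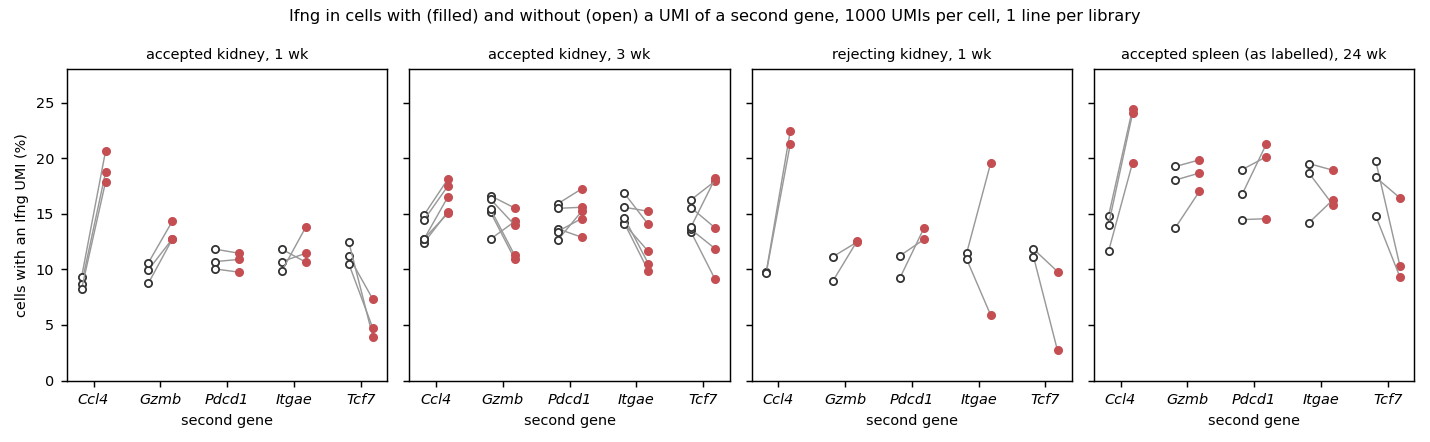
Share of cells with Ifng (percent, cells thinned to 1000 UMIs) among cells with and without a UMI of another gene, with 1 line per CD8+ library, open points for cells without and filled points for cells with that gene. With Ccl4 the share averages 19.1% against 8.72% at 1 week and 16.5% against 13.4% at 3 weeks in accepted kidney.

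Genes of the same pathways were counted from lists of receptors, IFN-γ response genes, TNF and NF-κB response genes, transcription factors, RNA decay factors and other ligands. From 1 to 3 weeks in accepted kidney, where 53.5% of all genes rose and 21.5% fell, 8 of 11 tested receptor genes rose and 1 fell, with a list median of 0.68 beside 0.41 over all genes. Tnfrsf1a, the main TNF receptor, rose by 1.32 on the log2 scale and Il2rb by 1.21, whereas Il2ra, the inducible IL-2 receptor chain, fell by 2.85. Of 13 IFN-γ response genes 9 rose and 2 fell (median 0.56). Nlrc5, which drives MHC class I genes, rose by 1.52 and Gbp4 by 1.24, and the chemokine Cxcl10 fell by 1.18 and Iigp1 by 0.71. In the NF-κB list 4 of 11 rose and 3 fell (median 0.05), among them the inhibitor Nfkbia, which fell by 1.85, and Rel, which fell by 0.97, with Icam1 up by 0.68 and Tnfaip3 by 0.57.

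All 12 transcription factors passed the test in these kidneys, 8 upward and 4 downward (median 0.54). Runx3 rose by 1.95 and Nfatc2, an NFAT factor, by 1.21, while Id3 fell by 2.53 and Batf by 1.26. Among 7 factors that shorten the life of cytokine transcripts, 4 rose and 2 fell (median 0.54): Rc3h2 rose by 1.18 and Zfp36l2 by 1.14, and Zfp36 fell by 0.44 and Zc3h12a by 0.39. Only 10 of 21 other ligands had enough counts, of which 5 rose and 2 fell (median 0.46). Fasl and Tnfsf10, both death ligands, each rose by 2.03, and Il21 fell by 1.95 and Tnfsf11 by 0.99. The counts of the decay factors and the other ligands are near those shares of all genes, and the NF-κB list had fewer that rose. A rise of less than the 0.41 of the median gene, such as a small one on plain totals, is a fall relative to that gene, and TMM scaling brought the median to 0.03.

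In rejecting against accepted kidney at 1 week, where 48.9% of all genes were higher and 10.5% lower, 4 of 11 receptor genes were higher and none lower (median 0.39 beside 0.70 over all genes). They included Tnfrsf14 at 2.23 and Csf1r, the Csf1 receptor of macrophages and 1 of the 6 myeloid genes above, at 1.97. Of 13 IFN-γ response genes 9 were higher and 2 lower (median 0.94), with Cxcl9 at 3.08, Nlrc5 at 2.69, Socs1 at -1.32 and Cxcl10 at -1.16. A list of 7 macrophage genes summed to 35.4 to 215 CPM in the rejecting CD8 libraries and 30.2 to 78.0 CPM in the accepted ones. The part of myeloid transcripts in these values was not tested. The NF-κB list had 3 of 11 higher and 1 lower (median 0.31), with Nfkb1 at 1.37, Birc3 at 1.08 and Nfkbia at -1.89. Of 12 transcription factors 8 were higher and 2 lower (median 0.82), Runx3 at 2.02 and Nfatc2 at 1.81 against Id3 at -1.77 and Batf at -0.55. The decay list split into 3 higher and 2 lower of 7 (median -0.19), with Zc3h12d at 1.87, Rc3h1 at 1.76, Zfp36l2 at -1.41 and Zfp36 at -1.97. Of 11 other ligands 3 were higher and none lower (median 0.71), Il21 at 2.01 and Tnfsf10 at 1.58 among them. In the receptor, NF-κB, decay and ligand lists the share that was higher lay below that of all genes.

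Over the 32 libraries, the genes whose log2(CPM + 1) followed Ifng most closely were Bhlhe40 (Pearson r = 0.971), Ccl3 (0.968) and Gem (0.966). For Tnf these were Litaf (0.945), Clic4 (0.938) and Cd244a (0.933), and for Csf1 Sytl2 (0.938), Tnfsf10 (0.932) and Gm156 (0.925). The closest genes were further off for Ltb, with Slc9a3r1 at 0.846, and for Lta, with Sdhaf1 at 0.817. These correlations describe libraries that share groups, depth and processing, and no test was made of them.

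In the rejecting kidney, 11948 CD45+ cells of 2 libraries were clustered without the 7 members and clusters were named from marker genes. The CD8 T-like class had 1677 cells, CD4 T-like 492, NK-like 570, dividing cells 795, macrophage-like 2456, monocyte-like 689, nonclassical monocyte-like 877, conventional DC-like 323, B-like 108 and plasmacytoid DC-like 91. The remaining 6 clusters did not meet the naming rule on their marker scores and stayed unnamed. All 2184 cells of the rejecting kidney CD8 matrix were in this matrix too, 1539 of them in the CD8 T-like class, 391 dividing, 221 in the CD4 T-like class, 31 in the NK-like class and 2 in the B-like class, so the 2 matrices are not independent. With 2 libraries the classes were not tested against each other, and a lower level in a class cannot be told apart from fewer producing cells in it. Intervals are exact Poisson or binomial at 95% and cover counting error only.

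Ifng was highest in lymphocyte classes. Its pooled level was 549 CPM in NK-like cells (interval 504 to 597), 151 CPM in CD8 T-like cells, 137 CPM in CD4 T-like cells and 96.0 CPM in dividing cells. An unnamed cluster of 607 cells, with both T cell and macrophage markers, had 60.7 CPM and held 9.49% of the Ifng UMIs. The libraries were close in NK-like cells, at 533 and 570 CPM. The shares at matched depth had another order, with 11.9% of CD8 T-like, 10.4% of CD4 T-like and 9.65% of NK-like cells. A few NK-like cells carried very many transcripts: 74 of 570 held all 540 UMIs and 1 cell held 136. The 31 NK-like cells that are also in the CD8 matrix held 216 of these UMIs, and the other 539 had 350 CPM (interval 313 to 391). Macrophage-like cells had 2.10 CPM and 0.204% of cells (median 2810 UMIs per cell), which sets the background here, and no UMI was seen in 323 conventional DC-like cells. Tnf was led by myeloid classes. It was highest in nonclassical monocyte-like cells at 180 CPM and monocyte-like cells at 158 CPM, compared with 49.5 CPM in macrophage-like, 50.2 CPM in CD4 T-like and 37.9 CPM in CD8 T-like cells.

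Csf1 was highest in T cell classes in this matrix, with 54.2 CPM in CD4 T-like cells (interval 40.7 to 70.8) and 33.2 CPM in CD8 T-like cells (27.7 to 39.5). The 2 libraries had 45.5 and 18.1 CPM in CD8 T-like cells. B-like cells had 27.8 CPM from 6 UMIs (10.2 to 60.4). The unnamed cluster of 607 cells had 18.5 CPM of Csf1 and 13.9% of its UMIs. In NK-like cells it was 8.14 CPM and in macrophage-like cells 2.75 CPM. Il10 was 77.3 CPM in CD4 T-like cells (61.0 to 96.6), which held 29.7% of its UMIs with 4.12% of the cells, and 4.71 CPM in CD8 T-like cells. The same unnamed cluster held 26.6% of the Il10 UMIs at 24.1 CPM and macrophage-like cells 15.1% at 5.11 CPM, while B-like cells had 41.6 CPM from 9 UMIs. The Il10 levels in CD4 T-like cells of the 2 libraries were 104 and 57.6 CPM. Within the CD8 matrix itself, its 221 CD4 T-like cells had 54.8 CPM of Il10 and its 1539 CD8 T-like cells 4.41 CPM. The former carry the name of their cluster only, since none of them held a Cd4 UMI. Ltb was 550 CPM in CD4 T-like, 544 in CD8 T-like, 418 in NK-like and 393 in conventional DC-like cells, and 76.4 in macrophage-like cells. Lta had 46 UMIs in all, of which 45.7% were in dividing cells and none in macrophage-like or monocyte-like cells. Il2 had 36 UMIs in all, of which 15 were in 1 NK-like cell.

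**Figure D5:**
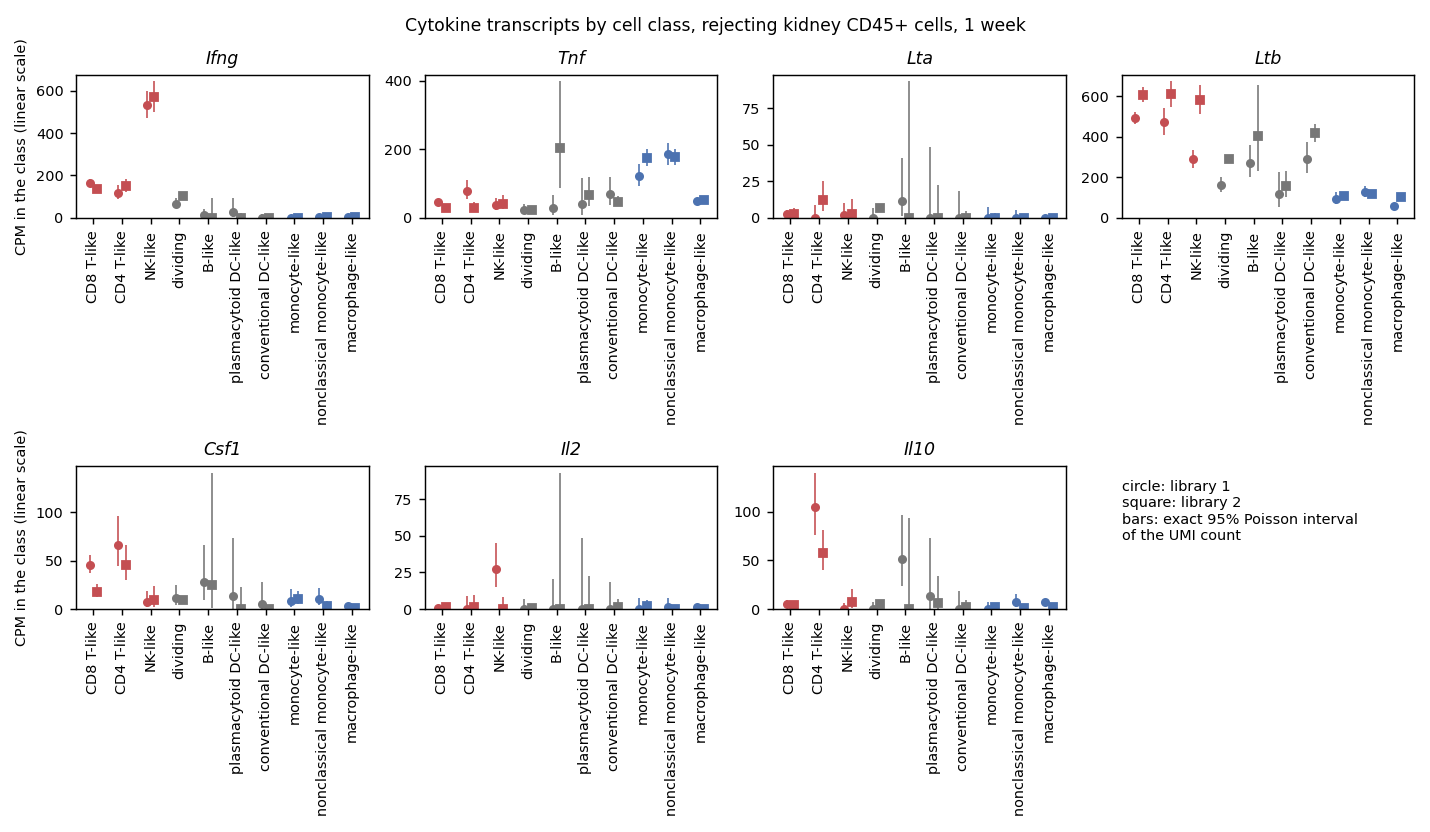
Level of each member (CPM, linear axis) in the named cell classes of the rejecting kidney CD45+ matrix, with a circle and a square for the 2 libraries and bars for exact 95% Poisson intervals. Over both libraries pooled, Ifng is highest in NK-like cells at 549 CPM, Tnf in nonclassical monocyte-like cells at 180 CPM, and Csf1 and Il10 in CD4 T-like cells at 54.2 and 77.3 CPM.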

How the data were processed

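Viable CD45+ cells were sorted and sequenced with 10x 3′ chemistry; per the labels and the study's methods, the authors aligned reads with Cell Ranger to mm10, filtered cells, and selected CD8+ T cells with Seurat (versions are not given in the sources used here). The deposited matrices hold UMI counts per gene and cell, not normalized, after the authors' filters. Libraries were split by the barcode tags, and samples were grouped by the labels, which give no replicate numbers and do not say that tags are mice; the p-values measure the spread between these libraries.

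UMIs were summed per library, and 11 comparisons over all genes that passed edgeR's filter on low counts were fitted on plain totals with edgeR 4.0.16's quasi-likelihood test (R 4.3.3), with Benjamini-Hochberg adjustment and a threshold of 0.05. TMM factors, DESeq2 1.42.0, no filter, a fit over all libraries, CD8-gated cells and leaving out each library were alternatives, and a block by tag number and leaving out NK-like cells were added after seeing the data. The main fits of 1 group against another were tested on simulated data, while the interaction fit and the alternatives were not. For shares, each cell was thinned to 1000 UMIs (500 and 2000 as alternatives, seed 7), and library shares were compared by two-sided exact permutation tests, 70 in all, unadjusted. CD45+ cells were clustered with scanpy 1.11.5 (10000 UMIs per cell, 2000 variable genes without the members, 30 components, 15 neighbours, Leiden resolution 0.8). Scrublet called 2 of 11948 cells and did not work, so doublets were kept. Intervals are exact at 95%, and floors use 3 counts. UMI counts are molecules, so depth limits precision mainly in the libraries of rejecting recipients' spleen.

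The genes and lists were chosen with earlier results of these data known. All 7 members were described. Pathway genes were named by the 2 largest and 2 smallest log2 fold changes among the called genes of a list, and similar genes by the 3 highest correlations among genes averaging 20 CPM or more, for members averaging 5 CPM or more. The all-cell samples of accepted grafts, both integrated and by week, and the integrated one of their recipients' spleens were not used here. Kidney cell classes were therefore described for rejection only.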

Additional observations from a re-analysis of the deposited data

Results flagged for a closer look

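In 3 groups of 5 libraries 1 library stood far from the others, of 40 groups of values examined, and chance picks out about 1 in 20. Replicate 1 of accepted kidney at 3 weeks had Il2 in 0.288% of cells at matched depth. Replicate 5 of the recipients' spleen at 3 weeks had Csf1 in 0.168% of cells, and replicate 5 of naive spleen in 0.103%. Each of these shares rests on few cells.

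The change from 1 to 3 weeks differed between kidney and spleen for 6 members by the interaction test of edgeR. The differences, kidney change minus spleen change on the log2 scale, were 1.37 for Ifng, 1.77 for Tnf, -1.49 for Lta, 0.67 for Ltb, 6.28 for Csf1 and 1.86 for Il2. Csf1 and Il2 had too few counts to be tested within spleen, with 13 and 8 UMIs in all 5 spleens of 3 weeks, so their differences rest on a spleen level near 0. The spleen matrices held cells without a CD8 UMI, and their part in these differences was not tested beyond the gated values. In gated cells of the 1-week spleens Csf1 and Il2 averaged 0.527 and 0.567 CPM, beside 1.87 and 1.89 CPM in all cells.

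In the naive spleen CD45+ matrix, which no comparison used, 12.1% of NK-like cells had Ifng at matched depth, above the 0.314% of B-like cells in the same matrix. In that matrix CD8 T-like cells had 0.477 CPM of Ifng and NK-like cells 106 CPM.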

How the results depend on the processing

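Of 906 refitted member values in the comparisons, 847 kept their direction and their side of the threshold. The cell-class values were less stable: 115 of 609 moved beyond the library spread or counting interval of the main value. With a library left out 34 of 280 moved, and at Leiden resolutions 0.4 and 1.5 6 of 49 and 7 of 70. Fewer classes met the naming rule at 0.4. Class shares moved in 34 of 70 cases at 500 UMIs and in 33 of 70 unthinned. With TMM scaling and with DESeq2, the change from 1 to 3 weeks in accepted kidney turned for Ifng (-0.15 and -0.16) and Ltb (-0.16 and -0.17), and the difference between rejecting and accepted kidney turned for Ifng (-0.568 and -0.563). It also turned without the NK-like cells of the rejecting kidney, an alternative chosen after seeing the data (-0.19, and -0.879 with TMM). The plain-total scale keeps the shift of the median gene, which these scalings remove. In CD8-gated cells the values that turned were Lta from 1 to 3 weeks in spleen (0.32), Il2 between kidney and spleen at 1 week (1.35), Ltb at 3 weeks (0.10), Tnf (-0.0702) and Lta (-0.0367) in recipients' against naive spleen, and Il10 in the interaction (-0.61). Il2 between kidney and spleen at 1 week lay between -0.266 and 0.10 with a library left out, and turned without accepted kidney replicate 2 or 3 or spleen replicate 2. The cause was not tested.

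The number of members called moved by over 1.5 times in these cases. In spleen from 1 to 3 weeks it was 5 with no filter and 5 with the fit over all libraries, and 2 to 6 with a library left out, 6 without spleen replicate 3 of 1 week. In recipients' against naive spleen it was 6 with no filter and 6 with all libraries, and 3 to 5 with a library left out. In rejecting kidney against spleen it was 4 with all libraries and 1 in gated cells, and 1 to 3 with a library left out. In rejecting against accepted kidney it was 6 with TMM, 5 with DESeq2, and 6 with TMM without the NK-like cells. Between the labels at 24 weeks it was 4 in gated cells. These counts are given without the shares of all genes called under the same settings. Nothing is read from them but their dependence on the setting.

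Shares that turned were differences in percentage points. For Il2 from 3 to 24 weeks in kidney they were 0.0802 at 500 UMIs, 0.0863 at 2000, 0.661 unthinned and 0.174 gated. Il2 from 1 to 3 weeks in kidney was 0.0069 at 2000. Lta from 3 to 24 weeks in spleen was 0.045 at 500 and lay between -0.12 and 0.0106 with a library left out, turning without replicate 1 of 3 weeks or of 24 weeks. Lta from 1 to 3 weeks in spleen was 0.316 unthinned and 0.186 gated, Ltb was 1.63 unthinned there and -2.96 in kidney, and Il10 was 0.0143 gated in spleen. Leaving out a library makes the smallest possible p larger, so most shares then missed the threshold by construction. The labels give no replicate numbers, but the barcode tags of kidney and spleen share them. A replicate block by tag number, chosen after seeing the data, moved no call among 30 member values in 5 comparisons. In accepting mice the correlations of same-numbered libraries' deviations ran from 0.0195 to 0.481. Of 11 accepting pairs 4 correlated better with another number and the others best with their own. In rejecting mice the 2 pairs had -0.0357, where the deviations of 2 libraries mirror each other by construction. Whether the numbers pair the mice was thus not settled, and the main tests did not pair the libraries. Depth limits Il2, Il10 and Csf1 in spleen, where libraries held few UMIs of each.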
